A study of Mus musculus with 10 samples.

Results

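The matrix metalloproteinases (Mmp genes), the ADAM proteases, the ADAMTS proteases and their tissue inhibitors (Timp genes) were described in RNA from mouse mammary tumours. Members were the genes whose symbol in the GENCODE M21 annotation begins with Mmp, Adam, Adamts or Timp followed by a digit. They came to 52 of the 18012 genes measured: 18 Mmp, 16 Adam, 15 Adamts and 3 Timp genes. All 52 had a mean above the filter of 10 normalized counts, and 27 further symbols of these families were not analysed here. The tumours grew for 3 weeks in BALB/c mice from 4T1, a mammary carcinoma line of that strain. In 5 libraries (KO1 to KO5) the tumour cells carried a knockout of the gene the study targets, and in 5 (WT1 to WT5) they were wild-type. The labels name no altered gene in the host mice of either group, whose cells also contribute RNA to the tumour tissue. The labels give no age for the mice and do not say whether the knockout cells were 1 clone. The labels name no animal for any library, and p-values therefore reflect the spread among libraries, which may be technical.

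MMPs are zinc-dependent enzymes that cut collagens, elastin and other matrix proteins, and they are made as inactive precursors that other proteases switch on. ADAMs sit in the cell membrane and release the outer parts of growth factors, cytokines and receptors, while ADAMTS enzymes are secreted and trim proteoglycans and procollagens. TIMPs bind the active site of these enzymes and block it. In mammary tumours much of this set is made by fibroblasts, macrophages and neutrophils as well as by the carcinoma cells, and in bulk tissue fewer cells of a type and less RNA per cell cannot be told apart.

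The 7 Mmp genes measured between 7272514 and 7568485 of chromosome 9 (GRCm38) are neighbours, and WT3 was the highest WT library for 5 of them, as described further on. The sequences before the transcription starts of the 7 genes are shown here, and a part of these sequences in the levels was not tested. Each line gives the 100 bases upstream of a RefSeq start (build GRCm38.p6), read 5′ to 3′ along the gene. Capitals mark the AP-1 element TGAGTCA, or its reverse complement TGACTCA, a site of Fos and Jun factors known from MMP promoters.
Mmp13, chr9:7272414-7272513, plus strand: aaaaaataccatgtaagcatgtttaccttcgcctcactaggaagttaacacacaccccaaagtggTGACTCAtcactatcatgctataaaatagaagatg
Mmp12, chr9:7347274-7347373, plus strand: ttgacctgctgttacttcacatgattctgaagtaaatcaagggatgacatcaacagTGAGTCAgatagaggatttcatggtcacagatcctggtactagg
Mmp1b, chr9:7388027-7388126, minus strand: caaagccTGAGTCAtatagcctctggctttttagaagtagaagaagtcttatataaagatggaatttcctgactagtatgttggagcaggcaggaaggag
Mmp3, chr9:7445722-7445821, plus strand: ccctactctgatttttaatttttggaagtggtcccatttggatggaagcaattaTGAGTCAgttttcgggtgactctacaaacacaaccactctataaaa
Mmp1a, chr9:7464041-7464140, plus strand: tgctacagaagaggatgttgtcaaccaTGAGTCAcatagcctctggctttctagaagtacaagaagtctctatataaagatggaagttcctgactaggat
Mmp10, chr9:7502242-7502341, plus strand: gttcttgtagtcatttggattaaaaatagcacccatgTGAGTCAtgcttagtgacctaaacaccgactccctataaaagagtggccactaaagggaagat
Mmp8, chr9:7558329-7558428, plus strand: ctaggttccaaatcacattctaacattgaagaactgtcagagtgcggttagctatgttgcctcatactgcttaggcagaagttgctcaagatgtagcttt
The element stood in 6 of the 7 windows, with its first base between 35 and 93 bases before the start, and the Mmp8 window held none. For Mmp12 the window of the second of its 2 RefSeq starts is printed, and the other held none. Of 27025 mouse genes with a longer window, from 250 bases before to 50 bases after the start, 5.95% held either form. Among the 32 members with such a longer window it was found in 7. These were 6 of the 7 neighbours (85.7%) and 1 of the other 25 members (4%), Adam19 at 1 of its starts. A match describes the letters only.

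Libraries held 8596772 to 19879472 reads of genes, and 0.151% to 0.545% of all reads belonged to 35 added control RNAs that were left out. Carcinoma markers were measured in all 10 libraries, and all 12 of them had a lower fitted value in KO (median log2 difference -0.96, 10 at an unadjusted p under 0.05, 0 called in limma or edgeR and 1 in DESeq2). WT2, WT3 and WT5 held keratinocyte RNA, with a mean log2 level of the 13 keratinocyte markers of 5.94, 8.97 and 7.63 against at most 2.25 in the other 7 libraries. Krt1 was at 0 in those 7. KO5 and WT1 to WT4 have library names with the prefix RESUB, which the labels do not explain, and WT2 and WT5 share the library number 170. The labels do not say whether these are libraries of 1 tumour. Means and SDs below count each as a library, and averaging them into 1 left 0 members called. WT2 also had the highest mean log2 level of skeletal muscle markers, 12.87 against 3.64 to 9.95 in the other 9 libraries, and the highest levels of adipocyte (9.21) and mast cell markers (7.5). All 12 muscle markers had a lower fitted value in KO (median log2 difference -2.01, 0 at an unadjusted p under 0.05, 0 called in limma, edgeR or DESeq2). So had all 13 keratinocyte markers (median -4.14, 13 at such a p, 0 called in limma or edgeR and 7 in DESeq2). Of 5 mast cell markers 4 were lower and 1 higher (median -1.35, 4 at such a p, 0 called in limma or edgeR and 1 in DESeq2). Of 11 T and NK cell markers 10 were higher and 1 lower (median 0.74, 5 at such a p, 0 called).

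No member passed the threshold between KO and WT. In limma 0 of 52 had an adjusted p under 0.05, beside 1 of the 17940 genes tested (0.00557%). edgeR called 0 members and 1 gene (0.00557%), and DESeq2 0 members and 121 genes (0.674%). At an unadjusted p under 0.05 there were 4 members, Mmp12 and Adamts10 with higher means in KO and Mmp16 and Mmp17 with lower means, which is 7.69% of the members beside 6.5% of all genes (2.83% higher and 3.67% lower). For all 52 members the 2 groups of libraries overlapped, while they did not overlap for 1.42% of all genes tested (KO above WT in 0.686%, below in 0.736%). Of the members 25 had a higher and 27 a lower fitted value in KO, with a median log2 difference of -0.038 beside -0.0081 over all genes. Without WT2, WT3 and WT5 it was -0.076 with 0 members called, and 43 members kept their sign while 9 changed it (Mmp1b, Mmp3, Mmp10, Mmp14, Mmp25, Timp3, Adam15, Adamts4 and Adamts7). Where that fit changes the sign or moves a named member's difference by over 1.5 times, its value is given beside the result.

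**Figure D1:**
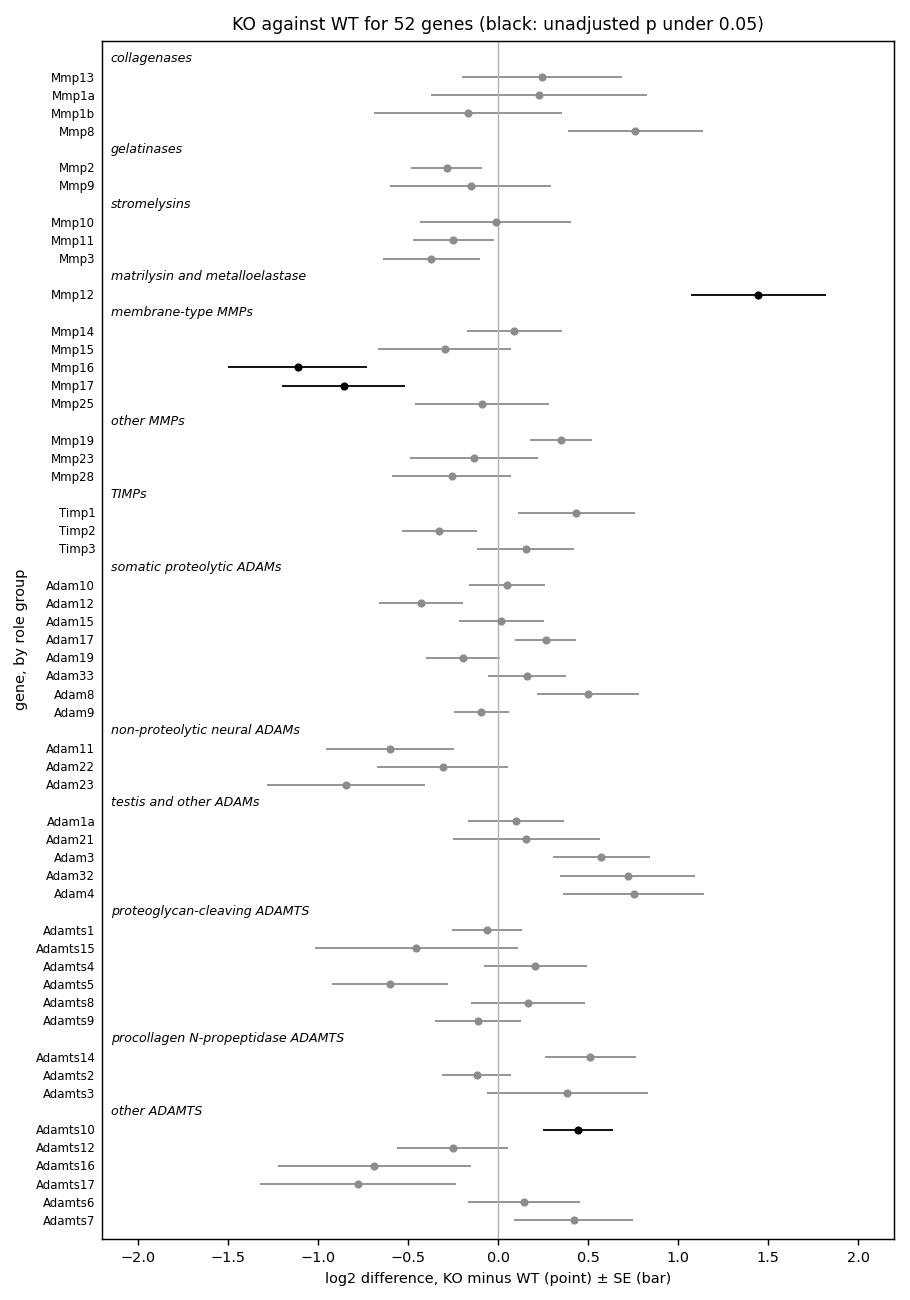
Log2 difference between KO and WT (x axis, point) with its standard error (bar) for each of the 52 genes, grouped by role; black marks an unadjusted limma p under 0.05. Mmp12 stands at 1.45 and Mmp16 at -1.11, and all other points lie between -0.86 and 0.76.

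Per length of exon, the inhibitors Timp1 and Timp2 and a few proteases led the set. Timp1 had the highest level at 1345 ± 552 normalized counts per kilobase (mean ± SD over all 10 libraries), followed by Timp2 at 1061 ± 290. Mmp3, a stromelysin that cuts many matrix proteins, had 905 ± 315, and Adam10, the main sheddase of Notch receptors and cadherins, had 794 ± 176. Next came Mmp14, a membrane-bound collagenase that activates Mmp2, at 672 ± 192 normalized counts per kilobase. The collagenase Mmp13 followed at 653 ± 460 and the gelatinase Mmp9 at 651 ± 342. The lowest were Adamts17 at 1.39 ± 0.81 and Mmp16 at 1.48 ± 0.72 normalized counts per kilobase. The order between neighbours is not resolved, since in 50 of 51 neighbouring pairs the means differed by less than the larger of the SDs. Exon lengths are unions over all annotated isoforms, which lowers the value of genes with long rare isoforms.

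**Figure D2:**
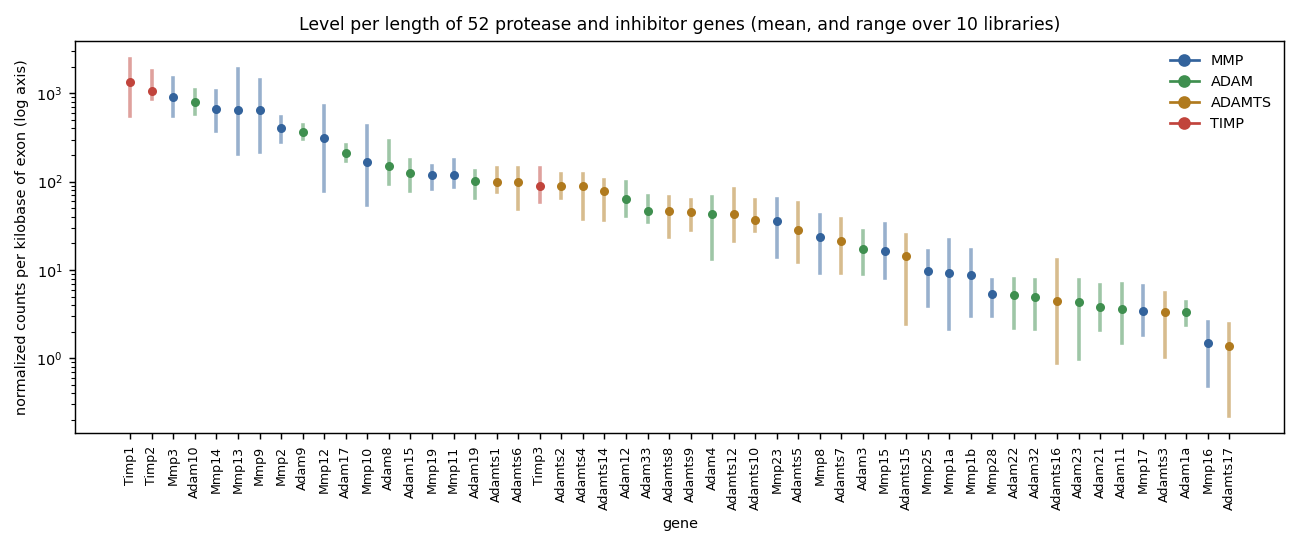
Level of each of the 52 genes in normalized counts per kilobase of exon (log axis), as the mean (dot) and the range over 10 libraries (line), coloured by family. Levels fall from 1345 for Timp1 to 1.39 for Adamts17, and the ranges of neighbouring genes overlap.

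Between libraries some members were nearly constant and others moved widely. The highest library was under 2-fold above the lowest for 10 members: Adam9 (1.45-fold), Adam17 (1.52), Adam1a, Adamts2, Adamts1, Mmp19, Adam10, Mmp2, Mmp11 and Adam33. It was over 5-fold above for 12 members, among them Adamts16 (14.7-fold), Adamts15 (10.3), Mmp13 (9.28), Mmp12 (9.0), Mmp10 (7.87) and Mmp9 (6.55). Of these 12, Mmp1a, Mmp1b, Mmp16, Adamts3, Adamts16 and Adamts17 had means under 50 normalized counts, where counting error adds to the range.

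Mmp12, the macrophage metalloelastase, had the lowest p of the set. The gene (ENSMUSG00000049723) lies on chromosome 9 from 7344381 to 7369499 on the plus strand. Its normalized counts were 1753, 4059, 2431, 2970 and 5146 across KO1 to KO5. They were 1437, 572, 2493, 946 and 908 across WT1 to WT5. All KO libraries were above all WT libraries but WT3, which lay above KO1 and KO3. The mean was 3272 ± 1345 for KO libraries against 1271 ± 749 for WT libraries (SD, n = 5 each), a ratio of 2.57. The log2 difference was 1.45 ± 0.38 (SE; limma unadjusted p = 0.00204, adjusted p = 0.437), and the adjusted p was 0.417 in edgeR and 0.0538 in DESeq2. The difference ran from 1.20 to 1.73 with 1 library left out, was 1.39 without WT2, WT3 and WT5, 1.28 with WT2 and WT5 averaged, and was 2.12 within the RESUB libraries (KO5 against 4 WT) and 1.56 within the others (4 KO against WT5). Over all alternatives the adjusted p ran from 0.0538 to 0.999. Mmp12 shares 157 exonic bases with Mmp1b on the other strand, whose highest library held 24.3 normalized counts.

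The mean and summed levels of the macrophage markers did not order the libraries as Mmp12 did. Of 12 markers 9 had a higher and 3 a lower fitted value in KO (median log2 difference 0.20, 2 at an unadjusted p under 0.05, 0 called), and none was at 0 in any library. The 2 were Msr1 (log2 difference 0.79 ± 0.30 SE) and Fcgr1 (0.47 ± 0.21), while Cd163 had -1.17 ± 0.63. In KO5, the library with the most Mmp12, Msr1 was at its highest (7501 normalized counts) and Cd163 at its lowest (48.0). The summed level of the 12 markers ran from 20999 to 30013 normalized counts in KO and from 13448 in WT3 to 30940 in WT2. WT2 thus had the most macrophage marker RNA and the least Mmp12, and WT3 the least marker RNA and the most Mmp12 among WT libraries. With the mean marker level as a covariate, a fit added after the data were seen, the Mmp12 difference was 1.6 ± 0.31 (SE; limma adjusted p = 0.14). Across the 10 libraries Pearson's r of Mmp12 with the marker level was -0.28 (permutation p = 0.442, 0.708 adjusted over 8 relations) and Spearman's rho was -0.19 (permutation p = 0.605, 0.692 adjusted). Without WT2 and WT3, the libraries farthest from the median marker level, r was 0.26. A mean of markers that went different ways cannot separate macrophage number or state from genotype. The part of macrophages in the Mmp12 difference was not tested.

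**Figure D3:**
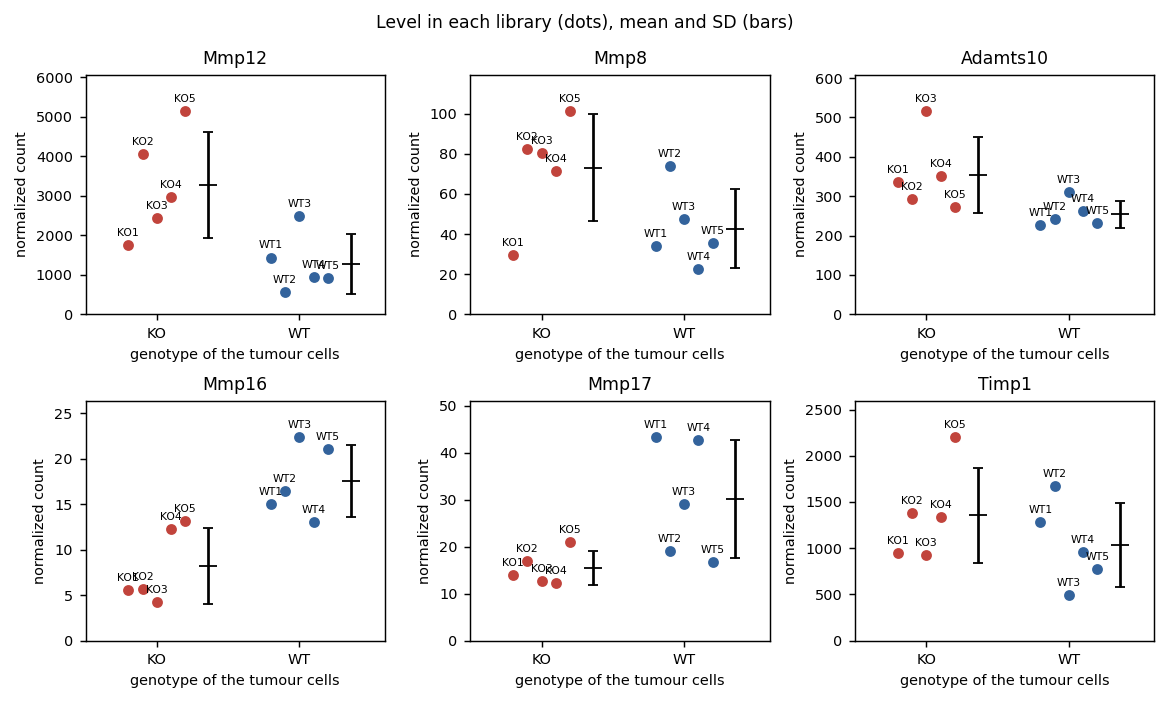
Normalized count of 6 genes in each library (dots, labelled), with the mean and SD of 5 libraries per genotype (bars). Mmp12 is at 1753 or more in all KO libraries and at 1437 or less in all WT libraries but WT3, and the groups overlap in all 6 panels.

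Among the collagenases, which cut fibrillar collagen, Mmp8 is the enzyme stored in neutrophil granules. Its normalized counts were 29.4, 82.5, 80.1, 71.5 and 101 in KO1 to KO5 and 34.1, 73.8, 47.6, 22.4 and 35.4 in WT1 to WT5. KO1 lay below most WT libraries and WT2 among the other KO libraries, so the groups overlapped. The mean was 73.0 ± 26.7 for KO against 42.7 ± 19.5 for WT (SD, n = 5 each; log2 difference 0.76 ± 0.37 SE, limma adjusted p = 0.783). It was 1.26 ± 0.48 without WT2, WT3 and WT5 (limma unadjusted p = 0.0282, adjusted p = 0.717) and 1.30 within the RESUB libraries. Neutrophil markers moved with it. All 13 measured markers had a higher fitted value in KO (median log2 difference 0.92, 2 at an unadjusted p under 0.05, 0 called). Their summed level ran from 1646 to 3584 normalized counts in KO and from 874 to 3639 in WT, and Ly6g, a defining marker, was at 0 in WT1. With the mean neutrophil marker level as a covariate, a fit added after the data were seen, the Mmp8 difference was 0.16 ± 0.36 (limma adjusted p = 0.918). As the markers themselves had higher fitted values in KO, this fit cannot separate neutrophil number from genotype. The part of neutrophils in the Mmp8 difference was not tested.

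Of 8 relations between a protease and markers of cells known to make it, 2 passed adjustment by Pearson's r and 1 of these also by Spearman's rho. For Mmp8 and neutrophil markers r was 0.82 (permutation p = 0.00396, 0.0317 adjusted) and rho 0.84 (permutation p = 0.00375, 0.03 adjusted) over 10 libraries. Without WT1 and WT5 r was 0.98. Mmp2, a gelatinase of fibroblasts, gave r = 0.78 with fibroblast markers (permutation p = 0.00967, 0.0387 adjusted) and rho = 0.71 (permutation p = 0.0267, 0.107 adjusted). Of the 14 fibroblast markers 5 had a higher and 9 a lower fitted value in KO. Without KO5 and WT3, which had the lowest fibroblast marker levels, r was 0.53, so that relation rests in part on those libraries. Mmp9 and Mmp25, also known from neutrophils, gave r of -0.42 and 0.35 with neutrophil markers (permutation p = 0.226 and 0.324, 0.603 and 0.648 adjusted; rho -0.50 and 0.26). Without WT1 and WT5 these were -0.75 and -0.50. Mmp3, Mmp14 and Adam12 gave r of 0.11, 0.069 and 0.14 with fibroblast markers (permutation p = 0.754, 0.85 and 0.686, all 0.85 adjusted; rho 0.28, -0.030 and 0.22). Without KO5 and WT3 these were 0.45, -0.35 and 0.16. The RESUB libraries and the others number 5 each, as do the KO and WT libraries, too few for values within them. The r values therefore pool both genotypes, and the part of the difference between genotypes in them was not tested.

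**Figure D4:**
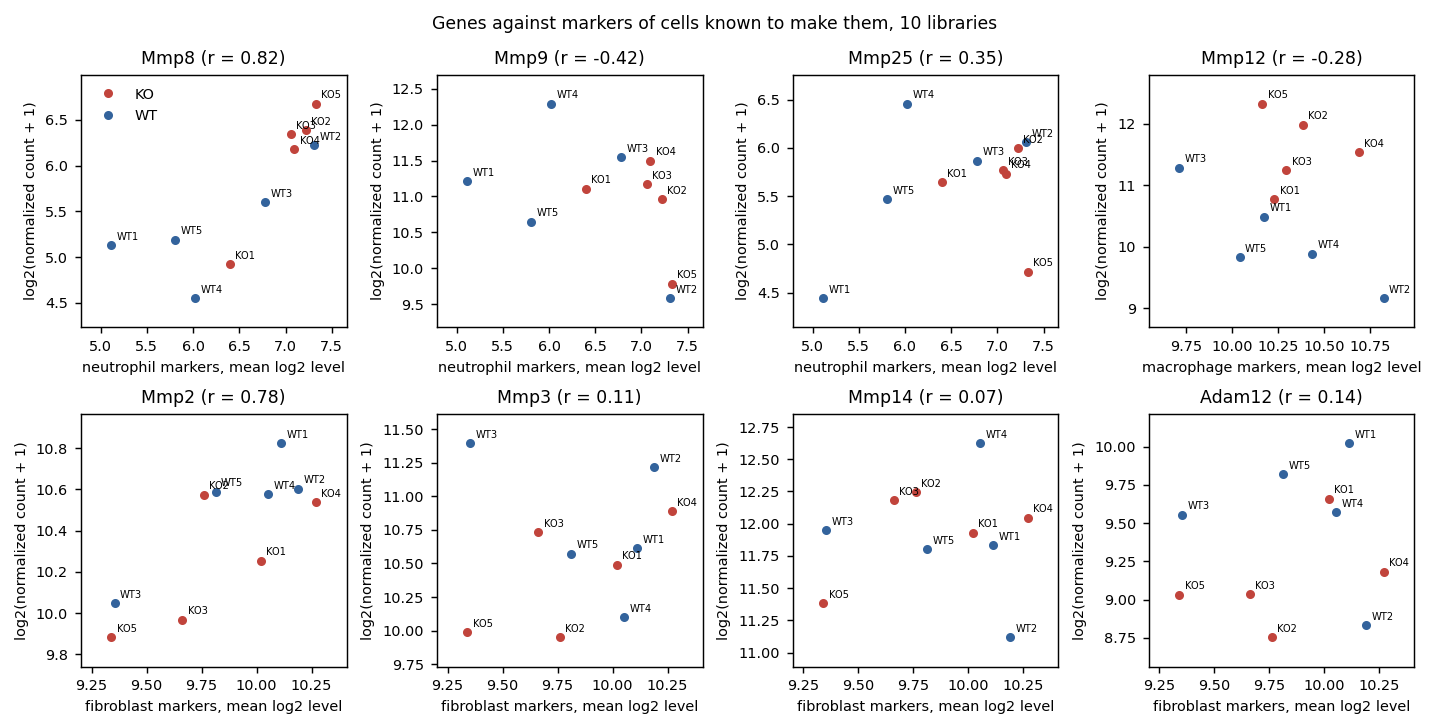
Log2 level of 8 genes (y axis) against the mean log2 level of a marker list (x axis) in 10 libraries, red for KO and blue for WT, with Pearson's r in each title. The dots of Mmp8 rise with the neutrophil markers (r = 0.82) and those of Mmp2 with the fibroblast markers (r = 0.78), while those of Mmp9 do not rise (r = -0.42).

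Among the other collagenases, Mmp13 was set apart by 1 wild-type library. Mmp13, a collagenase of fibroblasts, bone and invasive tumours, had 1605, 1631, 1647, 1420 and 1843 normalized counts in KO1 to KO5. In WT1 to WT5 it had 1504, 546, 5062, 864 and 1340. The KO libraries were close together while WT3 was 3.36-fold above the next WT library and WT2 the lowest. The mean was 1629 ± 150 for KO and 1863 ± 1828 for WT, while the fitted log2 difference was 0.25 ± 0.44 (limma adjusted p = 0.968), so mean and fit differ in sign. Without WT3 it was higher in KO by 0.72 on the log2 scale, and without WT2, WT3 and WT5 by 0.51. Mmp10, a stromelysin of epithelial cells, had 217, 350, 246, 235 and 234 normalized counts in KO1 to KO5 and 357, 208, 729, 92.7 and 213 in WT1 to WT5, with WT3 again the highest and WT4 the lowest. Its log2 difference was -0.013 ± 0.42, and 0.47 ± 0.45 without WT2, WT3 and WT5. Mmp3 ran from 988 to 1894 normalized counts in KO and from 1095 in WT4 to 2696 in WT3 (log2 difference -0.37 ± 0.27, limma adjusted p = 0.889), with WT3 only 1.13-fold above WT2. Without WT2, WT3 and WT5 its sign turned, to 0.054 ± 0.30.

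WT3 was the highest WT library for 5 of the 7 neighbouring genes of chromosome 9 (Mmp13, Mmp12, Mmp1b, Mmp3 and Mmp10), and the highest of all 10 for 4, with KO5 above it for Mmp12. Its lead over the next WT library was 3.36-fold for Mmp13, 2.04-fold for Mmp10 and 1.73-fold for Mmp12, but 1.22-fold for Mmp1b and 1.13-fold for Mmp3. The 5 genes are among the 6 whose printed windows hold the AP-1 element, Mmp12 only at the second of its starts. As 6 of the 7 windows hold it, most of this overlap was fixed beforehand. The sixth, Mmp1a, had 5.83 normalized counts in WT3 and was highest in KO4 at 43.9 and in WT2 at 39.2. The annotation lists Mmp1a as a polymorphic pseudogene. Mmp1a and Mmp1b are close copies whose reads the counting could split, so their single values are uncertain. Their log2 differences between KO and WT were 0.23 ± 0.60 and -0.17 ± 0.52, and 0.77 and 0.38 without WT2, WT3 and WT5. Mmp8, without the element, was highest in KO5, and WT2 was its highest WT library. A part of the element in these levels was not tested. WT3 also had the highest level of keratinocyte markers (8.97), the lowest summed level of macrophage and of fibroblast markers, and the lowest Timp1. WT2, with the most muscle marker RNA, had the lowest Mmp12, Mmp13 and Mmp9 of all 10 libraries. The part of these in the Mmp levels was not tested.

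**Figure D5:**
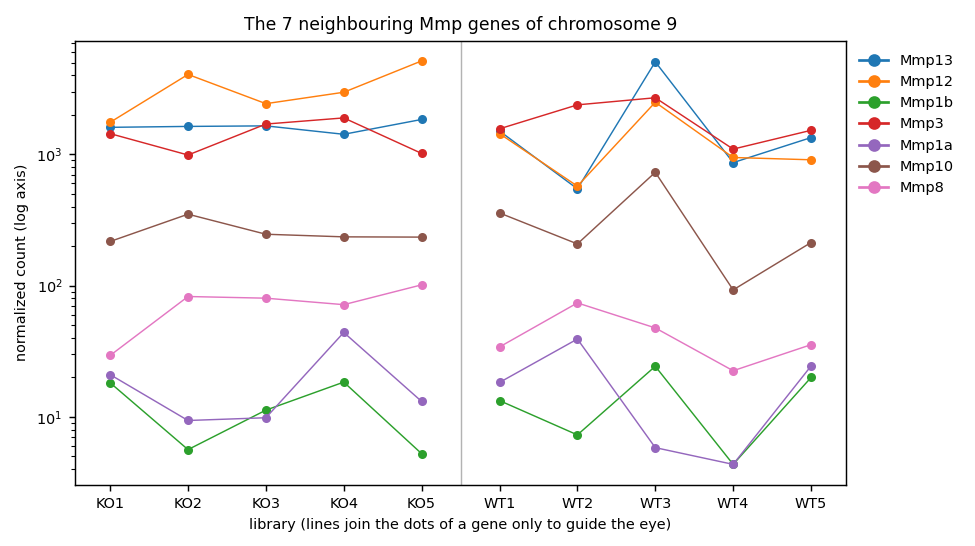
Normalized count (log axis) of the 7 neighbouring Mmp genes of chromosome 9 in each of the 10 libraries, KO on the left and WT on the right. Mmp13, Mmp12, Mmp1b, Mmp3 and Mmp10 peak in WT3 among the WT libraries, while Mmp8 and Mmp1a peak in WT2.

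The gelatinases, which cut denatured collagen and basement membrane collagen, did not pass the test. Mmp9 had 2206, 1998, 2306, 2886 and 879 normalized counts in KO1 to KO5 and 2377, 766, 2991, 5014 and 1603 in WT1 to WT5. The lowest values were in WT2 and KO5 and the highest in WT4, so both groups spanned a wide range (log2 difference -0.15 ± 0.45, limma adjusted p = 0.978). Without WT2, WT3 and WT5 it was -0.85 ± 0.46 (limma adjusted p = 0.739), and with WT2 and WT5 averaged -0.41. Mmp2 ran from 943 to 1524 normalized counts in KO and from 1058 to 1813 in WT (log2 difference -0.28 ± 0.20, limma adjusted p = 0.886; -0.46 without WT2, WT3 and WT5). Mmp11, a stromelysin of tumour stroma that furin activates inside the cell, ran from 245 to 422 in KO and from 271 to 484 in WT (log2 difference -0.25 ± 0.22).

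Of the 5 membrane-type MMPs, which act at the cell surface, 4 had a lower fitted value in KO, with a median log2 difference of -0.30 and 0 called (-0.73 without WT2, WT3 and WT5). Mmp16 (ENSMUSG00000028226, chromosome 4 from 17852893 to 18119145) was scarce, with 5.59, 5.63, 4.22, 12.3 and 13.1 normalized counts in KO1 to KO5 and 15.0, 16.4, 22.3, 13.0 and 21 in WT1 to WT5. The groups overlapped only by KO5 and WT4, at 13.1 and 13.0. The means were 8.16 ± 4.18 and 17.6 ± 3.99 (log2 difference -1.11 ± 0.39 SE, limma unadjusted p = 0.013, adjusted p = 0.671). The difference was -0.30 within the RESUB libraries, -1.57 within the others and -0.83 without WT2, WT3 and WT5. Its level per length was the second lowest of the set, and its value in KO3 stood for 3 reads.

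Mmp17, a membrane-type enzyme held by a lipid anchor (ENSMUSG00000029436, chromosome 5 from 129584169 to 129611099), had 14.0, 16.9, 12.7, 12.3 and 21 normalized counts in KO1 to KO5 and 43.2, 19.1, 29.1, 42.7 and 16.6 in WT1 to WT5. KO5 lay above WT2 and WT5, and KO2 above WT5, so the groups overlapped. The means were 15.3 ± 3.62 and 30.2 ± 12.6 (log2 difference -0.86 ± 0.34 SE, limma unadjusted p = 0.0263, adjusted p = 0.704). Both means were under 50 normalized counts, where counting error adds to the spread. The difference was -1.45 without WT2, WT3 and WT5, -0.42 in a fit that held the RESUB prefix as a covariate, -0.58 within the RESUB libraries and -0.25 within the others. Mmp14 ran from 2670 to 4857 normalized counts in KO and from 2222 to 6321 in WT (log2 difference 0.091 ± 0.26; -0.27 without WT2, WT3 and WT5). Mmp15 and Mmp25 had log2 differences of -0.30 ± 0.37 and -0.087 ± 0.37 (-0.73 and 0.12 without those 3 libraries). Of the remaining MMPs, Mmp19 had 474 ± 52 against 376 ± 70.9 normalized counts (log2 difference 0.35 ± 0.17, limma adjusted p = 0.785), and it shares 789 exonic bases with Tmem198b. Mmp23 and Mmp28 had log2 differences of -0.13 ± 0.36 and -0.26 ± 0.33 (-0.51 and -0.011 without those 3).

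The 3 inhibitors did not pass the test. Timp1, a secreted inhibitor that many cells raise in inflammation, had 944, 1376, 921, 1333 and 2198 normalized counts in KO1 to KO5 and 1281, 1668, 489, 960 and 772 in WT1 to WT5. KO5 was the highest and WT3 the lowest, and the other 8 libraries intermixed (log2 difference 0.43 ± 0.32, limma adjusted p = 0.891; 0.21 without WT2, WT3 and WT5). Timp2, which also takes part in the activation of Mmp2 by Mmp14, ran from 3355 to 4107 in KO and from 3319 to 6910 in WT4 (log2 difference -0.33 ± 0.21, limma adjusted p = 0.872). Timp3, an inhibitor bound to the matrix that also blocks ADAM17, ran from 477 to 1159 in KO and from 499 to 887 in WT (log2 difference 0.15 ± 0.27; -0.14 without WT2, WT3 and WT5). It shares 1733 exonic bases with Syn3, on the other strand.

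Of the 8 somatic ADAMs with protease activity 5 had a higher and 3 a lower fitted value in KO, with a median log2 difference of 0.033 and 0 called (4 and 4, median -0.046, without WT2, WT3 and WT5). The sheddases Adam10 and Adam17, the latter known for releasing tumour necrosis factor and EGF receptor ligands, had log2 differences of 0.049 ± 0.21 and 0.26 ± 0.17. Adam17 had 1651 ± 251 normalized counts for KO and 1370 ± 191 for WT (SD, n = 5 each; limma adjusted p = 0.872), and it shares 311 exonic bases with Iah1. Adam9, the steadiest member, had 1450 ± 174 against 1543 ± 167 (log2 difference -0.092 ± 0.15; -0.19 without those 3 libraries). Adam8, known from leukocytes, ran from 558 to 1322 normalized counts in KO and from 431 to 878 in WT (log2 difference 0.50 ± 0.28, limma adjusted p = 0.84), with KO2 and KO5 the highest. It was named after its values were seen. Adam12, which is raised in tumour stroma, ran from 430.5 to 808 in KO and from 454 to 1040 in WT (log2 difference -0.43 ± 0.23, limma adjusted p = 0.825; -0.66 without those 3).

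The non-proteolytic neural ADAMs Adam11, Adam22 and Adam23, which bind partners of synaptic membranes, all had lower fitted values in KO, with log2 differences of -0.60 ± 0.35, -0.31 ± 0.36 and -0.84 ± 0.44 and 0 called. The 5 measured ADAMs known mainly from testis all had higher fitted values (median log2 difference 0.57, 0 called). Adam1a, at 0.099 ± 0.26, shares 4779 exonic bases with Gm42878 and 1805 with Mapkapk5, both on its own strand. Its sign changed in 2 alternatives and that of Adam21 in 3. Adam3 and Adam4 had 61.3 ± 14.8 against 41.2 ± 11.9 and 131 ± 41.2 against 84.4 ± 45.3 normalized counts, with log2 differences of 0.57 ± 0.27 and 0.75 ± 0.39 (limma adjusted p = 0.775 and 0.798). Adam32 had 17.8 ± 3.55 against 11.4 ± 6.88 (log2 difference 0.72 ± 0.38).

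ADAMTS genes gave no call either. Adamts10 (ENSMUSG00000024299, chromosome 17 from 33524204 to 33553782), an enzyme tied to fibrillin microfibrils, had 336, 294, 516, 352 and 272 normalized counts in KO1 to KO5 and 227, 241, 311, 262 and 232 in WT1 to WT5. Every KO library was above every WT library except WT3, which lay above KO2 and KO5. The means were 354 ± 96.1 and 255 ± 34.2 (log2 difference 0.45 ± 0.19 SE, limma unadjusted p = 0.0394, adjusted p = 0.748). It was 0.076 within the RESUB libraries, 0.66 within the others and 0.30 without KO3. Of the proteoglycan-cleaving group 2 of 6 had a higher and 4 a lower fitted value in KO (median log2 difference -0.087; 1 and 5, median -0.34, without WT2, WT3 and WT5). In that group Adamts1 had 520 ± 138 against 535 ± 87.4 normalized counts (log2 difference -0.063 ± 0.19; -0.20 without those 3 libraries). Adamts4, an aggrecanase, had a log2 difference of 0.21 ± 0.29, and Adamts8 one of 0.16 ± 0.32 (-0.27 and 0.0055 without them). Of the procollagen N-propeptidases, which trim new fibrillar collagen, Adamts2 had 803 ± 167 against 869 ± 167 normalized counts (log2 difference -0.12 ± 0.19; -0.28 without them). Adamts14 had 468 ± 83.8 against 342 ± 121 (log2 difference 0.51 ± 0.25, limma adjusted p = 0.785), and Adamts3 had a log2 difference of 0.38 ± 0.45. Adamts6 and Adamts12 had log2 differences of 0.14 ± 0.31 and -0.25 ± 0.31 (0.23 and -0.76 without them).

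Genes that activate, hold or are cut by these enzymes also gave 0 calls in limma, edgeR and DESeq2. Of 18 genes of activation and clearance 11 had a higher and 7 a lower fitted value in KO (median log2 difference 0.088). Serpine2, an inhibitor of thrombin and plasminogen activators, had 1027 ± 230 normalized counts for KO and 650 ± 154 for WT (log2 difference 0.66 ± 0.21 SE, limma unadjusted p = 0.00788, adjusted p = 0.587). Pcsk6, a furin-like convertase, had 67.5 ± 27.9 against 129 ± 51.3 (log2 difference -0.93 ± 0.34, adjusted p = 0.671 in limma). Of 25 shed membrane proteins 17 had a higher and 8 a lower fitted value (median 0.11). Sdc1, a syndecan, had 3601 ± 822 against 2393 ± 420 normalized counts (log2 difference 0.58 ± 0.20, limma adjusted p = 0.671), and Tnf had a log2 difference of 0.53 ± 0.23. The EGF family ligand Btc and the cadherin Cdh1 had log2 differences of -1.05 ± 0.39 and -0.96 ± 0.43. Cdh1 is also a gene of the carcinoma cell, whose markers had lower means in KO, and the part of this in its value was not tested.

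For 1 of these genes, Cxcl16, a chemokine that ADAM10 releases, the libraries did not overlap: it ran from 1149 to 1319 normalized counts in KO and from 1014 to 1141 in WT, with a log2 difference of only 0.17 (limma adjusted p = 0.9). This is 1 of the 82 genes of these lists (1.22%), beside 1.42% of all genes tested. It was named after its values were seen. The 8 partners of ADAM10 and ADAM17, the 7 ADAMTS-like genes, the 12 matrix substrates and the 12 transcription factors of MMP promoters held no gene with an unadjusted p under 0.05, with median log2 differences of -0.073, -0.081, -0.061 and -0.18.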

How the data were processed

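Tumours were sectioned frozen, per the series' design text, and their total RNA was freed of DNA and ribosomal RNA and copied from random primers with molecular identifiers, per the labels' protocols. The deposited table holds a normalized read count, a signal value, for each gene in 10 libraries. The submitters' processing notes name bcl2fastq 2.17 and the build GRCm38. The aligner, the counter and the use of strand or identifiers are not given in the sources used here. All values (100%, within 0.0001) were whole multiples of the value of 1 read, so whole reads were recovered. The lowest row total was 101 reads.

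The 35 control RNA rows were left out. Genes with a mean of at least 10 were tested in limma 3.58.1 (R 4.3.3, with trend) after adding 1 and taking log2, a scale that understates the change of low genes, with Benjamini-Hochberg adjustment at 0.05 over 17940 genes. The recovered reads went into edgeR 4.0.16 and DESeq2 1.42.0. Tested on simulated data for 17940 genes, 5 against 5, limma found 13.2% of the changes with a log2 size of 1 and 75% of those with a size of 2. Each gene was drawn independently with the dispersion from edgeR, and 200 genes were changed. Differences that many genes share between libraries were thus not simulated.

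Members and lists were chosen with earlier results of these data known. All Mmp and Timp genes are named, with the 3 highest per length of each Adam and Adamts role group, every member at an unadjusted p under 0.05 and up to 4 such genes of each other list. Alternatives changed the pseudocount, filter, scaling, test, terms and libraries. Correlations used 100000 permutations, two-sided. Symbols and lengths came from GENCODE M21 and promoters from RefSeq (GRCm38.p6). Of the members 16 share exonic bases with another gene, and without a stated strand such reads cannot be told apart. Figures used matplotlib 3.10.9. A check of the targeted gene is not reported here.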

Additional observations from a re-analysis of the deposited data

Results flagged for a closer look

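In 5 cases 1 library stood apart from the other 4 of its genotype, where the gap to the nearest exceeded 0.71 of the group's range. Chance gives such a gap in about 1 of 20 groups, and 78 groups were looked at. Mmp13 was at 5062 normalized counts in WT3 and between 546 and 1504 in the other WT libraries. Mmp10 was at 350 in KO2 against 217 to 246 in the other KO libraries. Adam23 was at 138 in WT2 against 78.6 to 86.4, Adam11 at 39.1 in WT4 against 19.1 to 22.3, and Adam32 at 23.3 in WT3 against 6.37 to 11.1.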

How the results depend on the processing

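No member was called under any of the 26 alternatives, with 0 members each time, and the lowest adjusted p of a member was 0.0538 (Mmp12 in DESeq2). Over all genes DESeq2 called 121 and the fit within the 5 libraries lacking the RESUB prefix 52. The fits within the RESUB libraries, without WT2, WT3 and WT5, with WT2 and WT5 averaged and with the neutrophil marker level as a covariate called 0, with 681, 1238, 1294 and 1162 genes at an unadjusted p under 0.05. With 1 library left out 0 to 3 genes were called (3 without WT2, 0 without KO1, KO2, KO3, WT3, WT4 or WT5), and the member median ran from -0.086 to 0.031. The median was -0.18 within the RESUB libraries, 0.19 within the others and 0.14 with the neutrophil covariate; the cause was not tested. In fits with 1 library in an arm, that library is assumed to vary like the others. Mmp12, Mmp16, Mmp17, Adamts10 and Mmp8 kept their sign in all alternatives, as did 22 of the 52 members, while 30 changed sign in at least 1. With the replicate number of the titles as a replicate block 1 gene and 0 members were called. The numbers pair nothing by the labels, and deviations of same-numbered libraries correlated from -0.23 to 0.52, with 1 of 5 KO libraries closest to its own number. The power on simulated data limits what a p above the threshold shows.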

Other observations

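KO2 and KO5 stood apart from the other libraries for several members of low level. Adam23 was at 27.2 and 17.5 normalized counts there and at 78.6 to 138 in the other 8 libraries, Adam22 at 38.5 and 31.4 against 50.5 to 115, and Adamts15 at 54.4 and 25.3 against 76.7 to 261. The mean log2 level of the adipocyte markers was 3.30 and 2.78 in KO2 and KO5 and 5.63 to 9.21 in the others. Carcinoma markers were at 7.28 and 7.96 there against 8.68 to 10.4, and mast cell markers at 5.03 and 3.94 against 5.44 to 7.5. Keratinocyte markers were also lowest there (1.10 and 1.32 against 1.63 to 8.97). T and NK cell markers were highest there (6.08 and 6.69 against 4.91 to 6.04). Adam23, Adam22 and Adamts15 were picked after their values were seen. The part of fat tissue or of these cells in them was not tested. The same 2 libraries had the highest Mmp12 and Adam8 levels of all 10.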
